A study of Canis lupus familiaris with 33 samples.

Results

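The genes described here are 9 that carry p53 signalling or restrain the cell cycle: CDKN1A, CDKN1B and CDKN2C, which encode inhibitors of cyclin-dependent kinases (CDKs), RB1 and RBL2, which encode pocket proteins, MDM2 and MDM4, which encode the inhibitors of p53, and the damage response genes CCNG1 and GADD45A. They were chosen by name, and every probeset whose only gene symbol in the platform annotation was one of these was taken. This gave 19 of 43035 probesets, for 8 of the 9 genes and of 15115 named genes in all. GADD45A was not analysed here. RNA of canine lymph node biopsies had been hybridised to Affymetrix Canine Genome 2.0 arrays, which report 1 log2 value per probeset. The tumours were diffuse large B cell lymphoma (DLBCL), a lymphoma of mature B cells. There were 16 samples of naïve DLBCL, from dogs with a new diagnosis and no earlier chemotherapy, aged 2.7 to 13.3 years. There were 7 samples of relapsed DLBCL, from dogs aged 6.4 to 11.8 years that had been treated 13 to 672 days before. The labels name CHOP (cyclophosphamide, doxorubicin, vincristine and prednisone) for 4 of these 7 dogs and other agents or a code for the rest. The 10 healthy arrays were of nodes from dogs put down for conditions other than lymphoma, with no age in the labels. No other treatment or allele is given. By the case numbers, 4 healthy arrays came from 1 dog, named healthy dog 1, and DLBCL samples 11 (naïve) and 12 (relapsed) came from 1 dog. Arrays of a dog were averaged for DLBCL as a whole, samples 11 and 12 among them, which left 22 DLBCL dogs and 7 healthy dogs. Where naïve and relapsed DLBCL were taken apart, only the healthy arrays of a dog were averaged. Samples 11 and 12 then entered as separate samples.

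When p53 is stabilised by damage, it switches on CDKN1A, whose product p21 binds and stops cyclin-CDK complexes, and it also switches on MDM2, whose product returns p53 to degradation. CDKs phosphorylate the pocket proteins RB1 and p130, the product of RBL2, and so release the E2F factors that drive DNA replication genes. In resting B cells p27, the product of CDKN1B, and p130 are abundant, and both are removed when the cells enter the cycle. p18, the product of CDKN2C, blocks CDK4 and CDK6 and is known for its part in the end of B cell division on the way to the plasma cell.

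The groups differed in RNA quality and cell content, and these values touch each comparison with healthy nodes. The RNA integrity number (RIN) was 8.9 to 10.0 in DLBCL dogs and 5.8 to 7.7 in 6 healthy dogs, while healthy dog 1 had 9.15. The mean log2 level of 12 T cell markers was 7.32 to 9.62 in DLBCL dogs and 9.94 to 11.02 in healthy dogs, with no overlap, and 10 of the 12 were lower in DLBCL. The mean of 12 proliferation markers was 9.17 to 11.14 in DLBCL dogs and 7.94 to 9.97 in healthy dogs, and 11 of the 12 were higher in DLBCL. Of 8 B cell markers, CD79A (13.00 in DLBCL against 12.28 in healthy nodes) and BLK were higher in DLBCL, and the defining factor PAX5 was dim in both (6.06 in DLBCL and 5.95 in healthy nodes). Of 10 macrophage and monocyte markers 3 were lower in DLBCL and 0 higher, with a median difference of -0.47, and their mean level was 8.32 to 11.32 in DLBCL dogs and 9.35 to 12.01 in healthy dogs. Of 5 plasma cell markers 3 were lower and 1 higher (median -0.63), and of 10 stroma and endothelium markers 3 were lower and 1 higher (median -0.13). Over all measured genes 19.9% were called higher in DLBCL and 14.9% lower. Beside these shares the counts of the B cell, macrophage, plasma cell and stroma lists say little, with so few genes. Tag controls, probesets without a target in the dog genome, averaged 2.79 to 4.56. DLBCL samples 5 and 18 stood apart. In sample 5 the B cell markers had their lowest mean (7.64) and the macrophage and monocyte markers their highest among DLBCL samples (11.32), and in sample 18 the proliferation markers had their lowest mean (9.17). In tissue, fewer cells of a type and less RNA per cell cannot be told apart.

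With each gene read from its brightest probeset, CDKN1A was the only one of the 8 that passed the test between DLBCL and healthy nodes. It was lower in DLBCL. In naïve DLBCL its log2 level ranged from 9.25 (sample 6) to 12.10 (sample 5) with a median of 10.49. In relapsed DLBCL it ranged from 10.12 (sample 13) to 12.11 (sample 18) with a median of 10.76. In healthy dogs it ranged from 11.65 to 12.30 with a median of 11.95. Of the 22 DLBCL dogs, 19 lay below every healthy dog, and only samples 5, 18 and 21 (11.78) reached the healthy range. CDKN1A averaged 10.63 ± 0.77 in DLBCL and 11.97 ± 0.25 in healthy nodes (SD, n = 22 and 7), a difference of -1.34 (SE 0.29), or 2.53-fold, with an adjusted p of 0.000668 in limma. Against healthy nodes the difference was -1.44 in naïve DLBCL (adjusted p 0.000427) and -1.11 in relapsed DLBCL (adjusted p 0.0271), and both comparisons share the healthy dogs. Without healthy sample 7, relapsed CDKN1A had an adjusted p of 0.0515. Without DLBCL samples 5 and 18, the DLBCL difference was -1.49. These samples held the highest naïve and relapsed CDKN1A levels, so that leaving them out had to deepen the difference. With RIN as a covariate the difference was -0.88 (SE 0.63, adjusted p 0.55). In that fit only 0.668% of all genes were called higher and 1.19% lower. Healthy dog 1, whose RIN lay in the DLBCL range, had a CDKN1A level of 11.65, and 20 of the 23 DLBCL arrays lay below it. But this dog also had the highest macrophage marker mean of all dogs (12.01). Among healthy dogs it had the lowest T cell (9.94) and proliferation (7.94) means. Its neutrophil (10.23), plasma cell (10.21) and stroma (11.35) means were the highest of the healthy dogs. Within DLBCL dogs CDKN1A and RIN were related with r = -0.16, over a RIN of only 8.9 to 10.0. That range does not reach the RIN of most healthy dogs, so this r cannot speak for them. RNA quality and disease cannot be told apart here. The other CDKN1A probesets were dim (means of 5.70 and 3.78 in DLBCL), the second of them within the range of the tag controls, and they differed by 0.15 and -0.16 without passing the test (adjusted p 0.255 and 0.28).

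**Figure D1:**
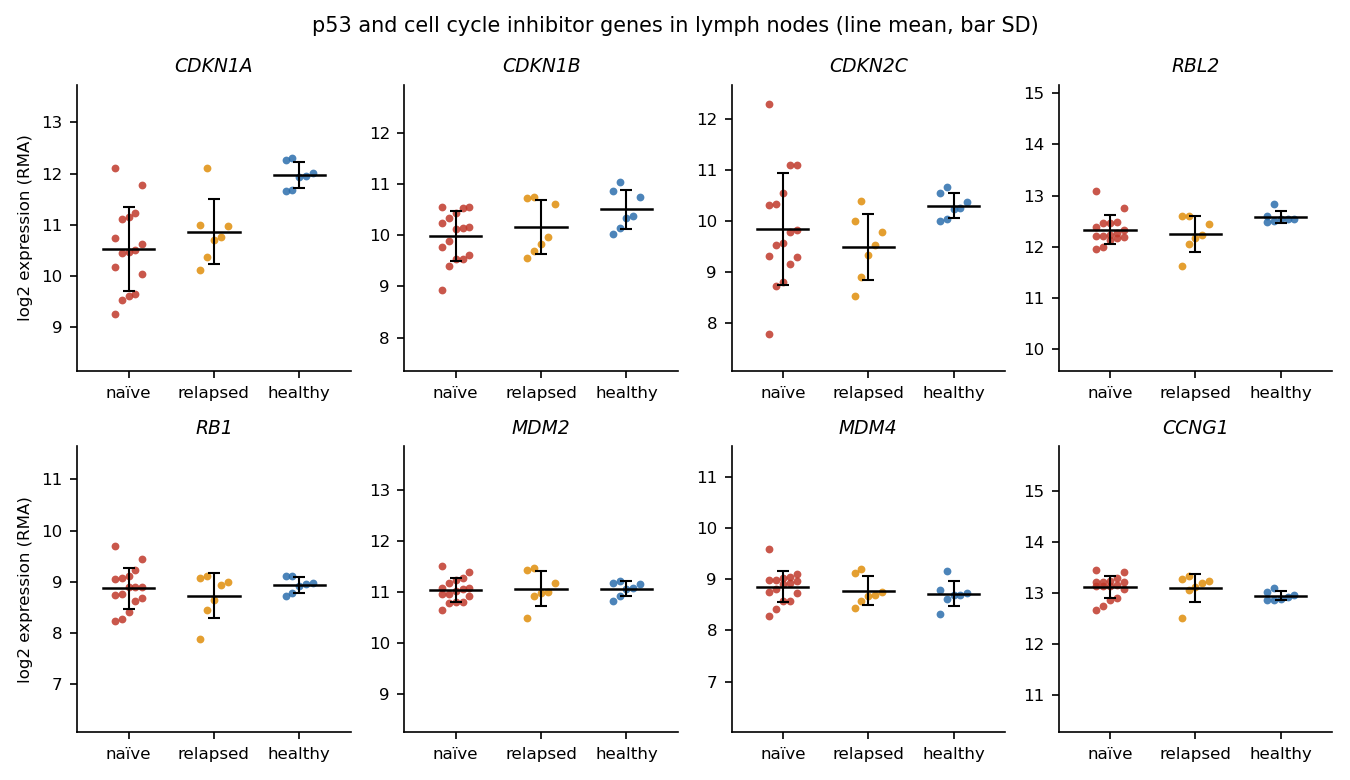
Log2 expression (RMA) of 8 genes, each read from its brightest probeset, in 16 naïve DLBCL samples, 7 relapsed DLBCL samples and 7 healthy dogs. Points are samples or, for healthy nodes, dogs, horizontal lines are means and bars are SDs; every panel spans the same number of log2 units. CDKN1A lies below the healthy range of 11.65 to 12.30 in most tumours, and CDKN2C spreads from 7.79 to 12.29 in DLBCL against 9.99 to 10.67 in healthy nodes.

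CDKN1B, which encodes p27, leaned lower in DLBCL but missed the threshold. Its log2 level was 8.93 (sample 20) to 10.56 (sample 21) with a median of 10.13 in naïve DLBCL, 9.55 to 10.75 with a median of 9.97 in relapsed DLBCL, and 10.03 to 11.03 with a median of 10.38 in healthy dogs. No DLBCL dog lay above the healthy range, 11 lay below it and 11 lay within it. The single CDKN1B probeset averaged 10.02 ± 0.48 in DLBCL and 10.50 ± 0.38 in healthy nodes (SD), a difference of -0.49 (95% interval -0.88 to -0.09, unadjusted p 0.0183, adjusted p 0.0548 in limma). This result sat at the threshold and crossed it when samples 5 and 18 were left out (-0.55, adjusted p 0.0228), when all 33 arrays were fitted with the dog as a block (-0.50, adjusted p 0.0339), and when dim probesets were filtered out (adjusted p 0.0465). Samples 5 and 18 (10.54 and 10.74) lay above the DLBCL mean of CDKN1B, so that leaving them out had to deepen the difference. Without healthy sample 6, which held the highest level, the difference was -0.40 (adjusted p 0.148). Naïve DLBCL differed from healthy nodes by -0.52 (adjusted p 0.053) and relapsed DLBCL by -0.34 (adjusted p 0.354).

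CDKN2C, which encodes p18, had the largest SD of the 8 genes among the tumours. Its level ran from 7.79 (sample 8) to 12.29 (sample 5) with a median of 9.68 in naïve DLBCL, from 8.53 (sample 9) to 10.40 (sample 18) with a median of 9.53 in relapsed DLBCL, and from 9.99 to 10.67 with a median of 10.26 in healthy dogs. Of the 22 DLBCL dogs, 14 lay below all healthy dogs and 3 naïve samples (5, 16 and 21) lay above them all. The SD over dogs was 0.996 in DLBCL and 0.247 in healthy nodes. The difference of means was -0.56 (95% interval -1.32 to 0.19, adjusted p 0.255 in limma), so that no shift was detectable with this number of dogs. The second CDKN2C probeset followed the first across the 23 DLBCL arrays (r = 0.97), also placed 3 dogs above and 14 below the healthy range, and had SDs of 0.98 in DLBCL and 0.32 in healthy nodes.

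RBL2, which encodes the pocket protein p130, leaned lower in DLBCL by a small step but missed the threshold. Its level was 11.96 (sample 21) to 13.09 (sample 20) with a median of 12.25 in naïve DLBCL, 11.63 (sample 4) to 12.61 (sample 12) with a median of 12.23 in relapsed DLBCL, and 12.48 to 12.84 with a median of 12.55 in healthy dogs. By the brightest probeset, 18 of the 22 DLBCL dogs lay below every healthy dog and only sample 20 lay above them. The difference was -0.28 (95% interval -0.52 to -0.05, unadjusted p 0.0203, adjusted p 0.0595 in limma). The other 3 RBL2 probesets differed by -0.16, -0.19 and -0.35, with adjusted p of 0.492, 0.468 and 0.0634. By these probesets 10, 11 and 16 DLBCL dogs lay below every healthy dog and 1, 3 and 1 lay above. The 4 probesets correlated with each other at 0.853 to 0.958 over the DLBCL arrays. The adjusted p was 0.0463 without DLBCL samples 5 and 18 and 0.139 without healthy sample 7, the dog with the highest level. It was 0.0294 with quantile normalization and 0.0473 with the dog as a random block. With dim probesets filtered out it was 0.0512, and with arrays centred on their median 0.0829. Samples 5 and 18 (12.33 and 12.60) lay above the DLBCL mean of 12.30, so that leaving them out had to lower that mean. RBL2 differed from healthy nodes by -0.25 in naïve DLBCL (adjusted p 0.116) and by -0.33 in relapsed DLBCL (adjusted p 0.105).

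RB1, the pocket protein gene lost in retinoblastoma, showed no shift and a wider spread in the tumours. It ranged from 8.23 to 9.69 in naïve DLBCL (median 8.89), from 7.89 (sample 4) to 9.11 in relapsed DLBCL (median 8.93) and from 8.72 to 9.11 in healthy dogs (median 8.95). Of the 22 DLBCL dogs, 8 lay below the healthy range and 3 above it. The brightest RB1 probeset differed by -0.12 (95% interval -0.44 to 0.20, adjusted p 0.594) and the second by 0.06 (95% interval -0.27 to 0.38, adjusted p 0.819). Sample 4 held the lowest level of both RB1 and RBL2, and it held the highest proliferation marker mean of the 22 DLBCL dogs (11.14).

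MDM2 and MDM4, whose products bind p53 and hold it in check, were close to the healthy level. MDM2 was 10.65 to 11.51 with a median of 11.05 in naïve DLBCL, 10.49 to 11.48 with a median of 10.998 in relapsed DLBCL, and 10.82 to 11.21 with a median of 11.08 in healthy dogs. In MDM2 5 DLBCL dogs lay above the healthy range and 5 below it, and the difference was -0.01 (95% interval -0.23 to 0.20, adjusted p 0.936). The other MDM2 probesets differed by 0.02 and 0.12 (adjusted p 0.896 and 0.454). MDM4 was 8.28 to 9.59 with a median of 8.92 in naïve DLBCL, 8.43 to 9.19 with a median of 8.69 in relapsed DLBCL, and 8.33 to 9.16 with a median of 8.70 in healthy dogs. Its groups overlapped almost wholly, with 2 DLBCL dogs above the healthy range and 1 below it. MDM4 differed by 0.10 (95% interval -0.15 to 0.35, adjusted p 0.566).

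CCNG1, the p53 target that encodes cyclin G1, gave unequal answers by probeset. Its brightest probeset was 12.68 to 13.46 with a median of 13.15 in naïve DLBCL, 12.52 (sample 9) to 13.33 with a median of 13.19 in relapsed DLBCL, and 12.87 to 13.09 with a median of 12.92 in healthy dogs. By this probeset 16 DLBCL dogs lay above the healthy range and 4 below it, and the difference of 0.17 (95% interval -0.02 to 0.36) did not pass the test (adjusted p 0.156). The second CCNG1 probeset was 9.58 to 10.81 (median 10.15) in naïve DLBCL, 9.46 to 10.37 (median 10.07) in relapsed DLBCL and 9.28 to 9.80 (median 9.63) in healthy dogs. It was higher in DLBCL by 0.51 (SE 0.12, 1.43-fold, adjusted p 0.00174 in limma), with 18 of 22 DLBCL dogs above every healthy dog and none below. Against healthy nodes it was higher in naïve DLBCL by 0.53 (adjusted p 0.00176) and in relapsed DLBCL by 0.47 (adjusted p 0.027). The first and second probesets followed each other over the DLBCL arrays (r = 0.74), while the dim last one (6.29 in DLBCL and 6.12 in healthy nodes) followed neither closely (r = -0.08 and 0.34) and differed by 0.17 (adjusted p 0.434).

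**Figure D2:**
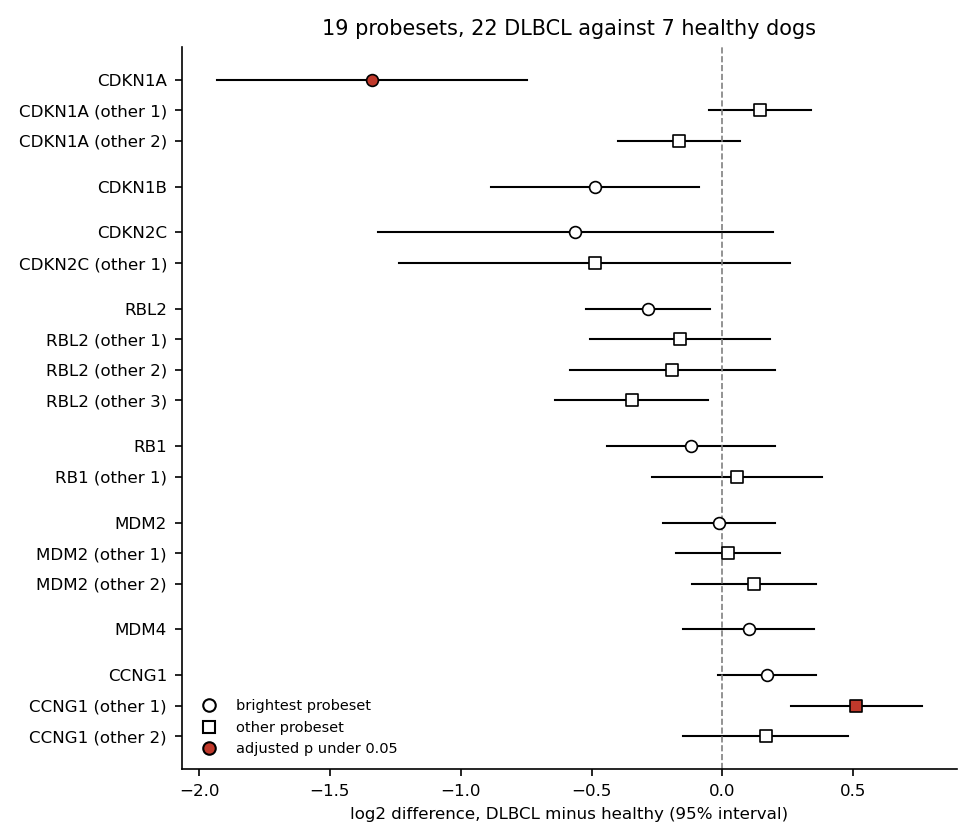
Log2 difference, DLBCL minus healthy, with its 95% interval for each of the 19 probesets (22 DLBCL dogs, 7 healthy dogs). Circles are the brightest probeset of each gene, squares the other probesets, and filled points have an adjusted p under 0.05. The filled points are the brightest CDKN1A probeset at -1.34 and the second CCNG1 probeset at 0.51.

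Among the 8 genes in their brightest probesets, 0 were called higher in DLBCL, where 19.9% of all measured genes were, and 1 (CDKN1A) was called lower, where 14.9% were. At an unadjusted p under 0.05 limma gave 0 of 8 higher and 3 lower (CDKN1A, CDKN1B and RBL2). Of the 15115 measured genes, 3993 were higher and 2794 lower at the same unadjusted threshold. After adjustment, the unmoderated one-way test of the methods called 0 of the 8 higher and 1 lower, CDKN1A (adjusted p 0.00117). In that test RBL2 had an adjusted p of 0.064 and CDKN1B of 0.0647. By probesets, 1 of 19 was called higher against a background of 19% and 1 of 19 lower against 13.6%. With 1 call among 8 genes these counts say little of the group as a whole. The median difference was -0.20 over the 8 genes and 0.06 over all genes. In naïve DLBCL 0 genes were called higher (background 19.9%) and 1 lower (15.1%), and in relapsed DLBCL 0 were called higher (10.8%) and 1 lower (8.96%), CDKN1A in each case.

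Relapsed and naïve DLBCL, which ask whether tumours after chemotherapy differ from untreated ones, were not told apart by any of these genes. None of the 8 was called in either direction by limma, and none had an unadjusted p under 0.05. Over all measured genes 0% were called higher and 0% lower, with 426 of 15115 higher and 407 lower at an unadjusted p under 0.05. The largest of the 8 differences, relapsed minus naïve, were -0.34 in CDKN2C (95% interval -1.12 to 0.43, adjusted p 0.947) and 0.34 in CDKN1A (95% interval -0.28 to 0.95, adjusted p 0.934). Both intervals are wide. The other 6 differences lay between -0.15 (RB1) and 0.18 (CDKN1B). The dog sampled in both states had CDKN1A at 11.0002 in the relapsed sample and 10.18 in the naïve one, and CDKN1B at 10.75 in the relapsed sample and 10.24 in the naïve one. In the same dog RBL2 was 12.61 in the relapsed sample and 12.39 in the naïve one, and MDM2 was 10.97 in the relapsed sample and 11.28 in the naïve one. These are single samples with no test.

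Of 11 cyclins and CDKs, the machinery that the inhibitors act on, 7 were higher in DLBCL and 1 lower, against 19.9% higher and 14.9% lower of all measured genes, and the median difference was 0.54. These background shares hold for all lists of this comparison. CCNE2, which encodes cyclin E2, was higher by 2.27, CDK1 by 1.55, CCNB2 by 1.47 and CCNA2 by 1.21. CDK4, the kinase that p18 blocks, was higher by 0.54 (12.43 in DLBCL against 11.88 in healthy nodes, adjusted p 3.17e-05), and CCND1 was the one lower, with a difference of -1.09. Its relatives CCND2 (0.37) and CCND3 (0.09), and CDK6 (0.09), did not pass the test. Of 14 partners of the pocket proteins, 6 were higher and 1, HDAC1, was lower, with a median of 0.26. E2F3 (1.10), E2F1 (0.83), the remaining pocket protein gene RBL1 (0.81) and TFDP2 (0.78) had the largest differences, and RBL1 lay above all healthy dogs in 20 of 22 DLBCL dogs. RBL1 is itself known as an E2F target.

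Of 9 genes for the degradation of p27, 5 were higher, against 19.9% of all genes, and 1, CUL1, was lower (-0.39), against 14.9%. SKP2, which marks p27 for destruction, was 6.92 in DLBCL against 6.09 in healthy nodes, a difference of 0.83, and 18 of 22 tumours lay above the highest healthy dog. Its cofactor CKS1B was higher by 0.77, and DTL, which guides the removal of p21 during replication, by 1.61. All these are RNA levels, and the proteins p27 and p21 were not measured here. Of 9 FOXO factors and FOXO targets, 4 were lower and 2 higher. FOXO1, a factor that switches on CDKN1B, had a difference of -0.90 with 20 of 22 DLBCL dogs below all healthy dogs, BCL6 of -2.03, IL7R of -2.16 and TXNIP of -0.66. IL7R is known in T cells, whose markers moved with the groups as given above, and the part of T cells in it was not tested. FOXO3 (0.62) and SOD2 (0.74) were higher.

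Among 6 relatives of these genes, 1 was higher and 2 were lower, where 19.9% and 14.9% of all genes were, so that with so few genes the counts say little. CDKN2D, which encodes the CDK4 and CDK6 inhibitor p19, was lower (-1.05) and the stress gene GADD45B was lower (-0.52). CDKN3, a phosphatase gene that is itself high in dividing cells, was higher (1.27). CDKN2B, CCNG2 and GADD45G did not pass the test.

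Of 22 other measured p53 targets, 7 were higher and 1 lower in DLBCL, with a median of 0.06, the same as that of all genes. PLK2 was lower (-0.88, adjusted p 0.018). DDB2 and POLH, which act at damaged DNA, were each higher by 0.58, ZMAT3 by 0.51 and the cell death gene BAX by 0.32. DDB2 lay above all healthy dogs in 21 of 22 DLBCL dogs. Among 14 regulators of p53, 5 were higher and 2, DAXX (-0.40) and RCHY1 (-0.16), were lower. CHEK1, the kinase of the replication checkpoint, was 8.36 in DLBCL against 6.85 in healthy nodes, a difference of 1.51 with no overlap between the groups. The share of all measured genes that separate the groups this far was not counted. So this, and the counts of dogs outside the healthy range, have no background to be read against. PRKDC was higher by 0.72 and CHEK2 by 0.40. In relapsed DLBCL against healthy nodes 4 of the 22 targets were higher and 0 lower, and 3 of the 14 regulators were higher and 0 lower, against 10.8% higher and 8.96% lower of all genes.

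**Figure D3:**
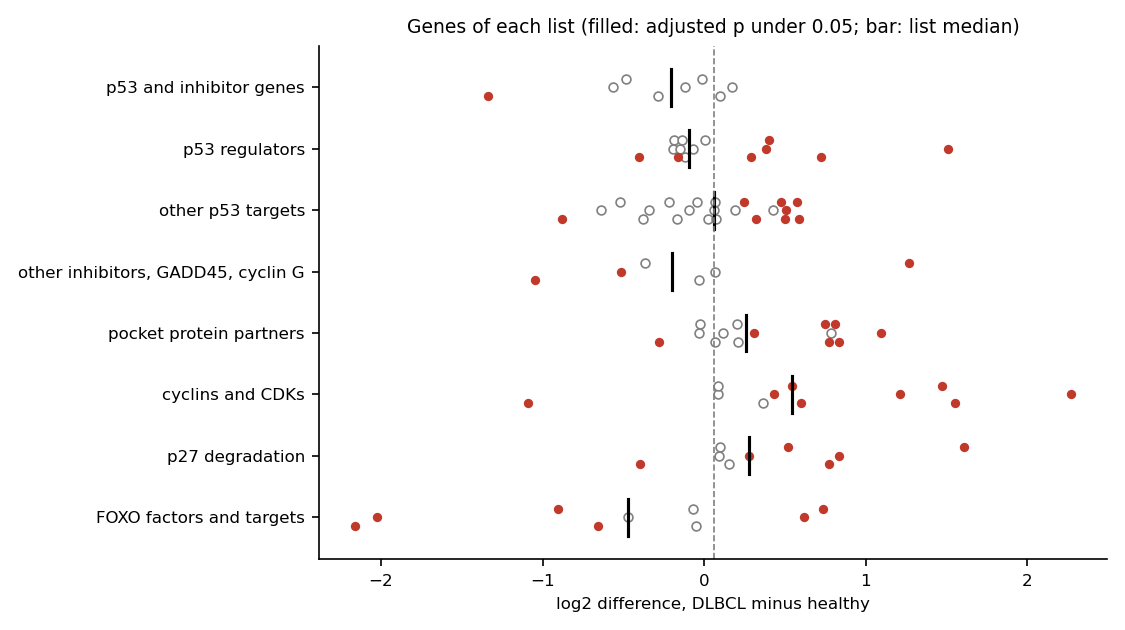
Log2 difference, DLBCL minus healthy, of the 8 genes (top row) and of the measured genes of 7 related lists. Filled points have an adjusted p under 0.05, black bars are list medians and the dashed line is the median of all 15115 genes (0.06). The cyclins and CDKs have a median of 0.54, while the 8 genes have -0.20.

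Across the 22 DLBCL dogs, the levels of the 8 genes were set against the means of the proliferation and T cell markers, 16 relations adjusted together. RBL2 fell as the proliferation markers rose. The Pearson correlation was r = -0.66 (permutation p 0.00094, adjusted p 0.015) and Spearman's rho was -0.81 (permutation p 2e-05, adjusted p 0.00032). Without the 2 dogs farthest from the median marker mean r was -0.69. It was -0.65 within the 16 naïve samples (permutation p 0.00403) and -0.92 within the 7 relapsed samples (exact permutation p 0.00317). Among the 18 DLBCL arrays with an array day read from array names it was -0.52 on day 1 (n = 8) and -0.80 on day 2 (n = 7). Day 3 held too few samples (3). Sample 4 had the highest proliferation mean (11.14) and the lowest RBL2 (11.63), and samples 12 and 18, with proliferation means of 9.86 and 9.17, had RBL2 levels of 12.61 and 12.60. The relation of RBL2 with the T cell markers did not pass the adjustment (r = -0.39, permutation p 0.0765, adjusted p 0.204).

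MDM2 also ran against the proliferation markers (r = -0.55, permutation p 0.00844, adjusted p 0.045, rho = -0.44, permutation p 0.0433, adjusted p of rho 0.173), but this rested on few samples. Without the 2 farthest dogs r was -0.32 (permutation p 0.164), within naïve samples it was -0.13 (permutation p 0.635), and within the 7 relapsed samples it was -0.91 (exact permutation p 0.00516). It was -0.38 on array day 1 and -0.72 on day 2.

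CDKN1A rose with the T cell markers (r = 0.55, permutation p 0.00738, adjusted p 0.045, rho = 0.61, permutation p 0.00307, adjusted p 0.0246). Without the 2 farthest dogs r was 0.49 (permutation p 0.0295). The relation was seen in naïve samples (r = 0.72, permutation p 0.00205, n = 16) and not in the 7 relapsed samples (r = -0.21, exact permutation p 0.648), and by array day it was 0.78 on day 1 and 0.19 on day 2. The difference between the groups was not tested. In 40 further relations with B cell, macrophage, plasma cell, stroma and neutrophil marker means, chosen after the data had been seen, CDKN1A ran against the B cell markers (r = -0.65, permutation p 7e-05, adjusted p 0.0028, rho = -0.55, adjusted p of rho 0.106) and with the macrophage and monocyte markers (r = 0.64, permutation p 0.00121, adjusted p 0.0161, rho = 0.57, adjusted p of rho 0.106). Without the 2 farthest dogs these were -0.59 and 0.54. Within naïve samples they were -0.70 and 0.63, within relapsed samples -0.78 and 0.71, on array day 1 -0.34 and 0.77, and on day 2 -0.74 and 0.53. Samples 5, 18 and 21, which reached the healthy range of CDKN1A, had B cell marker means of 7.64, 9.77 and 9.60, below those of all other DLBCL samples. Their macrophage marker means were 11.32, 10.69 and 10.47. These did not set them apart, since samples 23 and 1 had macrophage means of 11.07 and 10.64. In samples 23 and 1 CDKN1A was 11.12 and 10.45, below the healthy range. Cells other than tumour cells and tumour cells themselves were measured together, and their part in the level of CDKN1A was not tested.

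**Figure D4:**
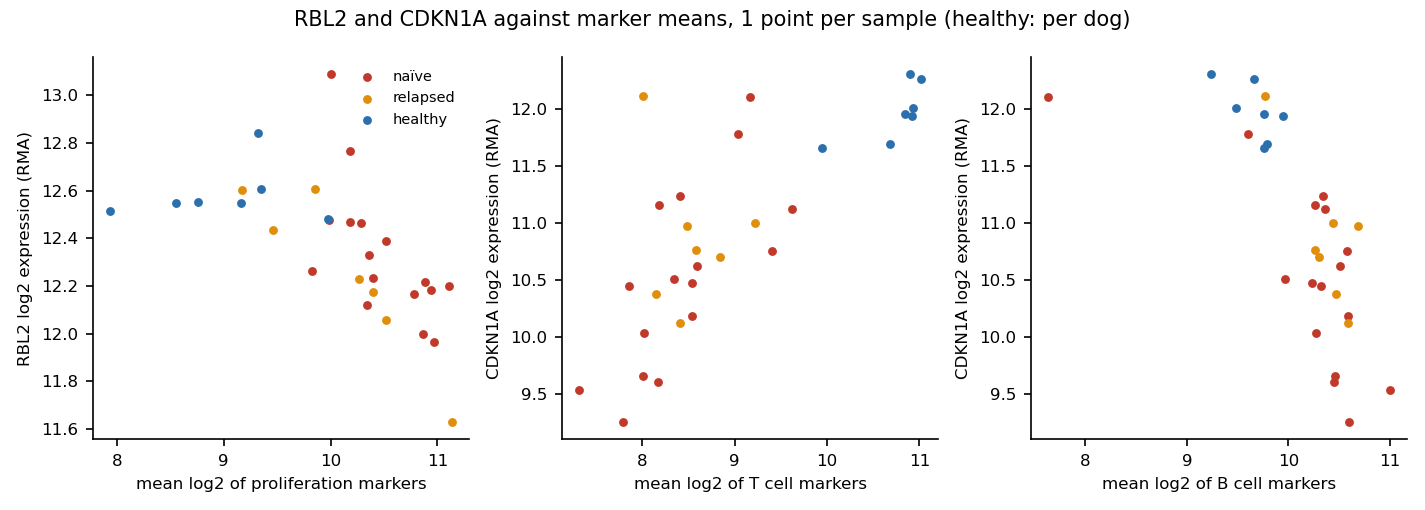
RBL2 against the mean log2 level of 12 proliferation markers, and CDKN1A against the means of 12 T cell and of 8 B cell markers, with 1 point per sample (per dog for healthy nodes). The correlations over the 22 DLBCL dogs were -0.66, 0.55 and -0.65. The healthy points are shown for comparison and entered no correlation.

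CDKN2C ran against the B cell markers (r = -0.68, permutation p 0.00075, adjusted p 0.015, rho = -0.46), but without the 2 farthest dogs r was -0.31 (permutation p 0.175), so that this rests on those dogs, among them sample 5. CDKN1B and the T cell markers had r = 0.50 (permutation p 0.0178, adjusted p 0.0714) and 0.26 without the 2 farthest dogs. With RIN, none of the 8 relations over the 22 DLBCL dogs passed the adjustment (lowest adjusted p of r 0.686). The lowest adjusted p of rho was 0.195, in CCNG1 (rho = -0.48, permutation p 0.0243). RIN was only 8.9 to 10.0 in these dogs, so that these relations cannot speak for the lower RIN of most healthy dogs. Among the 28 pairs of the 8 genes none passed the adjustment. The pairs with the highest r were CDKN1A with CDKN2C (0.60), MDM4 with RB1 (0.56), MDM4 with RBL2 (0.55) and CDKN1A with CDKN1B (0.54), each with an adjusted p of 0.0698.

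For each gene, the 3 of all measured genes with the highest Pearson correlation over the 22 DLBCL dogs are given as a description, since the highest of many correlations are high by choice and the dogs share array days. CDKN1A was nearest to CFP (0.88), IDO1 (0.86) and CXCL16 (0.85). RBL2 was nearest to ZFP62 (0.89), SF3B1 (0.86) and HP1BP3 (0.85). CDKN1B was nearest to PYGL (0.76), ITSN1 (0.75) and SUMF1 (0.73), and CDKN2C to ALPL (0.78), ATP6V1F (0.76) and MCOLN1 (0.72). RB1 was nearest to NFAT5, ANKRD27 and ELF1 (0.77 to 0.79), and MDM2 to SYNPO2, NTAQ1 and PRKAG2 (0.76 to 0.79). MDM4 was nearest to FBXO3, FNDC9 and PIK3AP1 (0.83 to 0.87), and CCNG1 to KMT5C, ZNF513 and ATG4D (0.74 to 0.85). SYNPO2, FBXO3 and FNDC9 were dim (means of 5.26 to 5.58).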

How the data were processed

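RNA of canine lymph nodes was measured on 33 Affymetrix arrays. The authors ran RMA in Affymetrix Expression Console (no version is given in the sources used here) and deposited log2 values, 1 per probeset and array, which ranged from 2.20 to 15.49 with array medians of 6.85 to 6.97. RMA gives the probe intensities of all arrays one distribution, which hides a change in total RNA per cell, and it compresses changes of dim probesets. The values were used as deposited, and the number of unused sample columns was 0. RNA had been extracted in 2 batches, but which samples each held was not known here, and no test between DLBCL and healthy nodes could include them. The array day was read for 18 DLBCL arrays from array names in the study's supplement. The sample number in the name was taken as the number in the sample title, a match that was not tested.

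Groups came from the sample labels. Groups were tested with limma 3.58.1 (R 4.3.3), with Benjamini-Hochberg adjustment over 43035 probesets and calls at an adjusted p under 0.05. DLBCL against healthy used 22 and 7 dogs, and the other comparisons shared 1 fit of 30 profiles. Gene symbols came from the platform annotation (29264 probesets with 1 symbol, 439 with several, 13332 unnamed), and each gene took the probeset with the highest mean over all arrays. Correlations used 100000 permutations, or all of them in 7 samples, two-sided. The procedures were tested on simulated data. The genes named are the 8 members, up to 4 called genes of each list by size of the difference, direct partners of a member, and the 3 genes nearest to each member, with a few more named after their values were seen. The members and lists were chosen with earlier results of these data known. The number of arrays limits the precision. Python 3.11.15 and matplotlib 3.10.9 drew the plots.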

Additional observations from a re-analysis of the deposited data

Results flagged for a closer look

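In each gene and group of 4 to 10 samples, the highest and the lowest sample were set against the others by the gap to the nearest sample as a share of the group's range. Of 16 groups tested 2 held a sample beyond the 95% limit, and chance alone gives about 1 in 20 groups. In RBL2, healthy sample 7 was the highest of the healthy dogs at 12.84, against 12.61 for the next dog, a share of 0.654. In CCNG1, relapsed sample 9 was the lowest of the relapsed samples at 12.52, against 13.06 for the next sample, a share of 0.674. Without relapsed sample 9 the CCNG1 difference, relapsed minus naïve, was 0.09 (adjusted p 0.945), against -0.01 with it.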

How the results depend on the processing

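Leaving out each healthy dog in turn gave 0 higher and 1 to 2 lower calls in DLBCL and in naïve DLBCL, and 0 to 1 lower in relapsed DLBCL. The lower calls in DLBCL against healthy nodes numbered 3 with 33 arrays as separate samples, with the dog as a random block or without DLBCL samples 5 and 18, 2 with dim probesets filtered at the 25th percentile or quantile normalization, and 0 with RIN as a covariate. The call beside CDKN1A was CDKN1B with the filter and RBL2 with quantile normalization. With 33 arrays as separate samples, the 4 arrays of healthy dog 1 counted as independent, so those calls do not rest on independent dogs. The lower calls in naïve DLBCL numbered 2 with the dog block, the filter, only the 2 groups compared or without samples 5 and 18, and 0 with RIN. Those in relapsed DLBCL numbered 2 with only the 2 groups compared (CDKN1A, and CDKN2C with an adjusted p of 0.0287), and 0 with RIN or with the mean of a gene's probesets. That mean gave 1 higher call, CCNG1, in DLBCL (0.28, adjusted p 0.0186) and 1 in naïve DLBCL. The cause of these moves was not tested.

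Sample numbers are shared by DLBCL and healthy samples. In 9 same-numbered pairs the correlation of deviations from the group means was -0.14 to 0.13, with 1 over 0.1, so that the numbers were taken as names. With the sample number as a replicate block (18 arrays), 2 genes were lower, CDKN1A and CDKN1B (-0.63, adjusted p 0.0338). But in this fit the 4 arrays of healthy dog 1 entered as if from separate dogs. The CDKN1B level of that dog (10.87) lay above all 23 DLBCL arrays. The CDKN1B call of this fit therefore does not rest on independent dogs. Relapsed against naïve kept 0 calls in each alternative run.

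Reversals concerned differences that no fit called. For MDM2 in DLBCL, the difference was 0.0638 (33 arrays), 0.00285 (dog block), 0.33 (RIN), 0.00749 (centred arrays), 0.0422 (mean of probesets), 0.0366 (replicate block) and -0.0545 to 0.0112 without a healthy dog. For MDM2 in naïve DLBCL it was 0.00871 (dog block), 0.32 (RIN), 0.00893 (centred), 0.0505 (mean of probesets), 0.00928 (without samples 5 and 18) and -0.0580 to 0.00771 without a healthy dog. For MDM2 in relapsed DLBCL it was -0.0170 (dog block), -0.0625 (without samples 5 and 18) and -0.0355 to 0.0302 without a healthy dog. RB1 was 0.0819 (RIN) and 0.0361 (replicate block) in DLBCL, and 0.15 (RIN) and 0.0302 (mean of probesets) in naïve DLBCL. MDM4 in relapsed DLBCL was -0.00736 without healthy sample 1. For relapsed minus naïve, MDM2 was -0.0257 (dog block), -0.0284 (mean of probesets), -0.00869 (array day block) and as low as -0.0455 without a relapsed sample. CCNG1 was 0.0158 (dog block), 0.00068 (mean of probesets), 0.0151 (array day block) and -0.0492 to 0.0852 without a relapsed sample (highest without sample 9), and RBL2 was 0.0184 without relapsed sample 4. 

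Among correlations, CDKN1A with proliferation was 0.0634 without samples 5 and 18, 0.12 without the 2 farthest dogs and 0.0816 in naïve samples. CDKN1B with proliferation was 0.0509 without the farthest dogs and 0.0857 in naïve samples, and CDKN2C was -0.0259 without the farthest dogs and, in relapsed samples, -0.28. With T cell markers, MDM4 was 0.0742 without the farthest dogs and 0.47 in relapsed samples, CCNG1 was 0.17 without the farthest dogs, and in relapsed samples CDKN1A was -0.21, CDKN2C -0.45 and RB1 0.25. With 7 healthy dogs, 6 of them of lower RIN than every tumour, CDKN1B and RBL2 crossed the threshold in some of these alternatives and not in others.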
